A study of Mus musculus with 8 samples.

Results

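Transcripts of 10 genes of the STAT5 pathway were followed in mouse B-lymphoid cells with and without c-JUN. They were the genes of STAT5 itself (Stat5a, Stat5b), the cytokine receptor chains Il2ra and Il7r, the feedback inhibitors Cish, Socs1, Socs2 and Socs3, the kinase gene Pim1 and the cytokine gene Osm. The genes were chosen by name as parts of the pathway, and for each the probe set of highest mean signal that carries 1 gene symbol was used, so that 10 of the 19937 genes measured are described. The 8 samples were 4 labelled c-jun knock out and 4 labelled wild type, all of a strain given as SW129/C57BL/6J, with 1 Affymetrix MoGene 1.0 ST array each. The labels give no age, no treatment and no account of how Jun was deleted. Whether BCR-ABL, the fusion kinase in the series title, was present in these cells is not stated. Nothing says that samples of 1 genotype came from separate animals or cultures, so the p-values reflect a sample-to-sample spread that may be technical. Titles follow 2 naming schemes, RO (replicates 1 and 2 of each genotype) and D/F (replicates 3 and 4), which the labels do not explain.

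STAT5A and STAT5B are closely related transcription factors that lie latent in the cytoplasm until a JAK kinase bound to a cytokine receptor, or an oncogenic tyrosine kinase such as BCR-ABL, phosphorylates them. They then pair, enter the nucleus and bind DNA. Among the genes they switch on are CISH and SOCS proteins, which bind receptors or JAKs and dampen the signal, and PIM1, a serine/threonine kinase that promotes survival. In B-cell progenitors the main physiological route to STAT5 is interleukin 7 through its receptor, whose alpha chain is encoded by Il7r.

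The DNA motif of a STAT dimer is TTCNNNGAA, which reads the same on both strands. It was searched for in RefSeq promoter windows of build GRCm38.p6, each from 250 bases before to 50 bases after an annotated transcript start. The windows covered 8 of the 10 genes. The motif was present for 3 of them, Cish, Socs3 and Il7r, and in 9.55% of all 27025 genes with a window. Counted by window, it was in 3 of the 11 windows of these genes and in 8.3% of all 32851 windows of this length. The matches are printed 5′ to 3′ on the strand of the gene, because they separate a feedback gene with paired motifs from genes with 1 or none in the window, and capitals mark the motif.
Cish: cagttTTCCTGGAAagTTCTTGGAAatctg
Socs3: ccagccTTCTTAGAAgggagg
Il7r: aggagcTTCAGGGAAtaccaa
The Cish run lies at chr9:107296654-107296683 on the plus strand, and its 2 motifs are separated by 2 bases and begin at the first base of the annotated transcript. At least 2 motifs were found in 0.457% of all windows. The Socs3 motif (chr11:117969512-117969520, minus strand) begins at position -154 and the Il7r motif (chr15:9530010-9530018, minus strand) at position -142, counted from the transcript start. The letters alone do not show binding by STAT5.

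Signals are on a log2 scale, and array medians lay between 6.93 and 7.42. The highest medians were those of wild-type replicates 1 (7.41) and 3 (7.42). Precision is limited by having 4 arrays per genotype. Jun was below the wild-type samples in all 4 knockout samples (6.86 ± 0.27 against 9.25 ± 0.87, SD, n = 4 each), and so was Cdk6. That order was found for 1.03% of all genes. The cells carried B-lineage transcripts: 13 of 16 measured markers, among them Cd79a, Ebf1 and Pax5, were above the array median in all 8 samples. Of the T-cell markers 2 of 11 were, and of the CD3 chain genes Cd3d and Cd3g stayed at 6.69 or below in every sample while Cd3e, from 7.10 to 7.76, was above the median of each array. The mean level of the T-cell markers ran from 6.59 to 7.05 in knockout and from 6.72 to 7.30 in wild-type samples. The marker genes given by name here and with Il2ra and Il7r were singled out after their values were seen. With limma, 1 of 19937 genes (0.00502%) was called between the genotypes after Benjamini-Hochberg adjustment, and it was none of these 10. Jun (log2 difference -2.38, limma adjusted p = 0.106) and Cdk6 (-2.48, limma adjusted p = 0.878) were not called either. At an unadjusted p under 0.05, 2 of the 10 genes passed, Il2ra and Socs3, where 2.25% of all genes did.

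**Figure D1:**
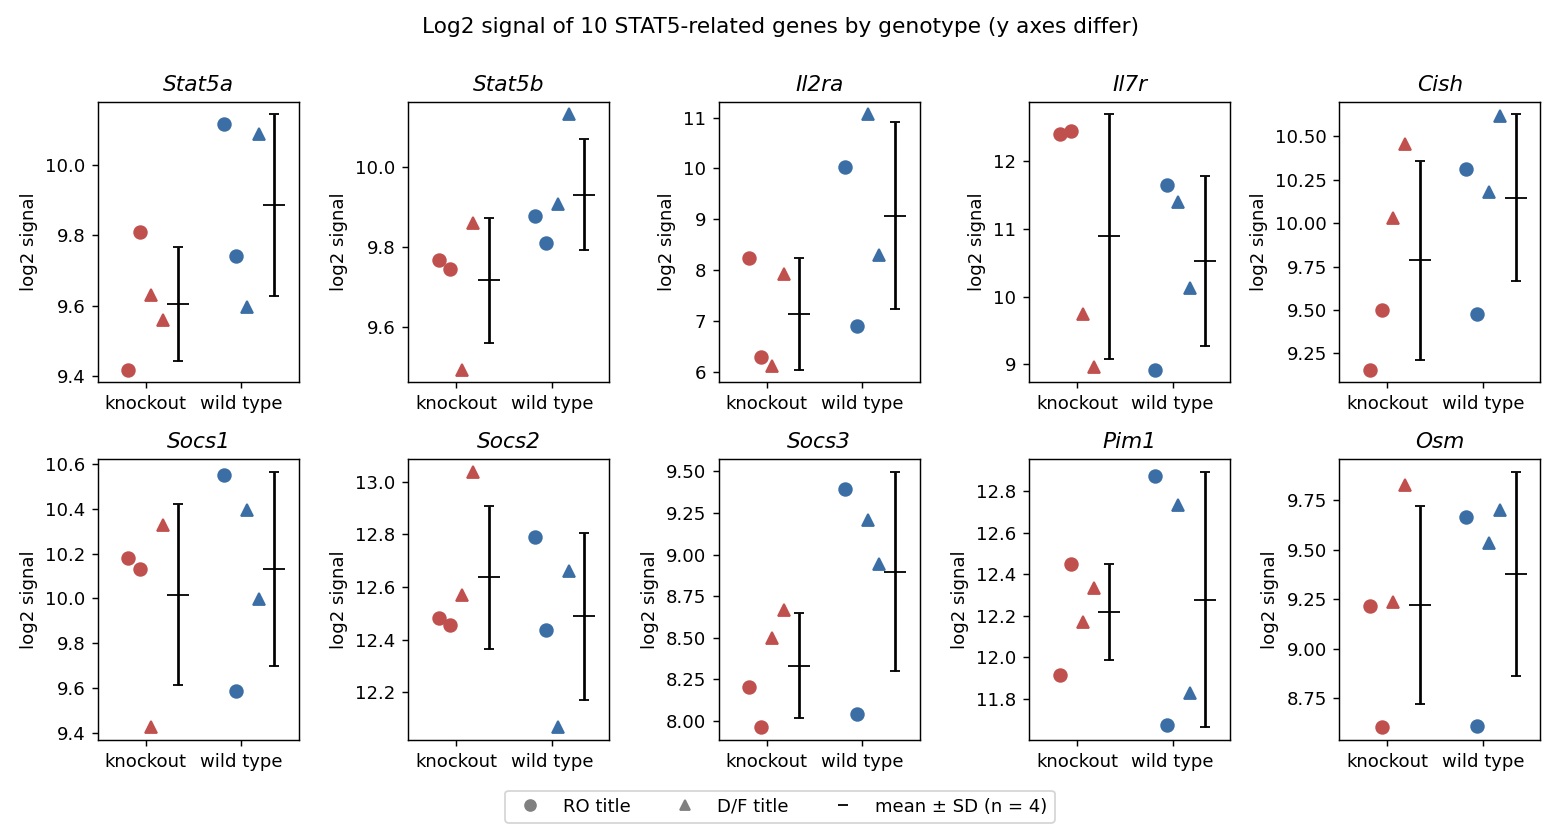
Log2 signal (y axis, a separate scale for each gene) of the 10 genes in knockout (red) and wild-type (blue) samples; circles are RO and triangles D/F titles, and bars are the mean ± SD of 4 samples. The genotypes overlap for every gene, and Il2ra and Il7r have the widest spread.

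STAT5 itself was slightly lower in knockout samples, by less than the fit could call. Stat5a (probe set 10381172) had log2 signals of 9.42, 9.81, 9.63 and 9.56 in knockout replicates 1 to 4 and of 10.12, 9.74, 9.59 and 10.09 in wild-type replicates 1 to 4. Wild-type replicates 1 and 4 were high, and the other two wild-type samples lay among the knockout samples. The log2 difference was -0.28 (SE 0.17, limma adjusted p = 0.878). Stat5b (probe set 10391286) had 9.77, 9.74, 9.49 and 9.86 in knockout and 9.88, 9.81, 9.91 and 10.13 in wild-type samples. Only knockout replicate 4 and wild-type replicate 2 crossed between the genotypes, and within each naming scheme both knockout samples lay below both wild-type samples. Such an order was found for 2.11% of all genes. The log2 difference of Stat5b was -0.21 (SE 0.15, limma adjusted p = 0.878), a 1.16-fold lower level. A 2-sided exact permutation of genotypes within the schemes gave p = 0.0556, the smallest value its 36 assignments allow, which any gene with that order has. The median difference of all 19937 genes was -0.113, and relative to it Stat5b was at -0.10 and Stat5a at -0.17. With each array centred on its median, the order of Stat5b within the schemes was lost and its difference was -0.06, while after quantile normalization the order was kept at a difference of -0.23. Stat5a and Stat5b are near-identical in much of their coding sequence, and cross-hybridization between their probe sets was not tested.

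Il2ra, which encodes CD25, the alpha chain of the interleukin 2 receptor and a known STAT5 target, had the widest spread of the 10 genes. Its probe set (10469278) was at 8.24, 6.28, 6.10 and 7.91 in knockout replicates 1 to 4 and at 10.02, 6.89, 11.06 and 8.30 in wild-type replicates 1 to 4. Wild-type replicates 1 and 3 were far above all other samples, wild-type replicate 2 lay inside the knockout range, and the samples differed by up to 31.2-fold. The SD over all 8 samples was 1.75, and 0.0953% of all genes had an SD at least as large. Knockout samples averaged 7.13 ± 1.10 and wild-type samples 9.07 ± 1.85 (SD, n = 4 each). The level was thus 3.83-fold lower in knockout samples, a log2 difference of -1.94 (SE 0.78, limma adjusted p = 0.878). The SE of this gene before moderation was 1.16, since limma pulls the variance of highly variable genes towards the trend of all genes, and a 2-sided exact permutation test over 70 assignments gave p = 0.114. The signals of knockout replicates 2 and 3 and wild-type replicate 2 lay below the median of their own arrays, where the size of a difference is uncertain.

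The direction of Il2ra was the same in both naming schemes. The difference was -1.20 in the RO samples, where knockout replicate 1 exceeded wild-type replicate 2, and -2.68 in the D/F samples, where both knockout samples lay below both wild-type samples. In a fit of the D/F samples alone Il2ra passed the adjustment (limma adjusted p = 0.00428), where 79 of all 19937 genes passed. Its moderated SE there was 0.50, against 1.65 before moderation. That fit had 2 residual degrees of freedom, to which moderation added 29.38 from the trend of all genes. The interaction of genotype and scheme did not pass (limma adjusted p = 0.723). Leaving out wild-type replicate 3 gave a difference of -1.24, and leaving out both wild-type replicates 1 and 3 gave -0.46 (SE 0.62). Those 2 samples also had the highest mean T-cell marker level (7.15 and 7.30), the highest myeloid and stromal marker levels and the highest array medians. Minus the median of its array, the T-cell level of wild-type replicate 1 was -0.26, inside the range of the knockout samples (-0.35 to -0.17), and that of wild-type replicate 3 was -0.11. On that scale their myeloid levels were -0.388 and -0.323, inside the knockout range (-0.48 to -0.297). Their stromal levels, 0.199 and 0.0841, remained the highest, with knockout replicate 3 next (0.0622). In wild-type replicate 3 the NK-cell genes Klrb1c and Klrd1 were at 10.54 and 8.94, while in wild-type replicate 1, the other sample of high Il2ra, they were at 6.08 and 5.86. Klrd1 was also at 7.89 in knockout replicate 3, the sample lowest in Il2ra, and Klrb1c at 8.93 in knockout replicate 4. The other 4 NK-cell markers were at 7.28 or below in every sample. The part of these transcripts in the Il2ra difference was not tested. Fewer cells with a transcript and less of it per cell cannot be told apart in bulk RNA.

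Il7r, the receptor chain through which B-cell progenitors receive interleukin 7, differed between the genotypes in opposite directions in the 2 naming schemes. In the RO samples its probe set (10427628) was at 12.40 and 12.44 in knockout and at 8.92 and 11.64 in wild-type samples. In the D/F samples it was at 9.75 and 8.96 in knockout and at 11.39 and 10.13 in wild-type samples. Both knockout samples thus lay above both wild-type samples in one scheme and below them in the other, an order that 5.8% of all genes had in either form. The RO difference was 2.14 (a 4.40-fold higher level in knockout samples) and the D/F difference -1.40 (2.65-fold lower). The interaction, D/F minus RO difference, was -3.54 (SE 0.97; 1.55 before moderation), with a limma adjusted p of 0.716 over all genes. At an unadjusted limma p under 0.05 the interaction passed for 1 of the 10 genes, Il7r, and for 5.38% of all genes. After adjustment it passed for 0 of the 10 and for 0.0301% of all genes. A 2-sided exact permutation within the schemes gave p = 0.0556, the smallest possible. That value follows from the order described above and adds no evidence to it.

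Averaged over schemes, Il7r was at 10.89 ± 1.80 in knockout samples and at 10.52 ± 1.25 in wild-type samples (SD, n = 4 each; log2 difference 0.37, SE 0.70, limma adjusted p = 0.895). Leaving out wild-type replicate 1 turned the difference to -0.53, and leaving out wild-type replicate 3 gave 0.97. The D/F difference passed in a fit of those samples alone (limma adjusted p = 0.00727), where 79 of all 19937 genes passed. Its SE was 0.28 moderated and 0.74 before. In the RO samples alone the difference did not pass (limma adjusted p = 0.397), where 32 of all genes did. Its SE there was 0.65 moderated and 1.36 before. The 8 signals spanned 11.4-fold, and 0.301% of all genes had an SD at least as large. Some marker genes were high in knockout replicates 1 and 2 as well. The recombinase genes Rag1 and Rag2 were at 9.88 and 9.09 in knockout replicate 1 and at 10.43 and 9.49 in replicate 2, but at 7.22 and 6.22 in wild-type replicate 1, the sample lowest in Il7r, and at 6.17 and 5.69 in wild-type replicate 4. They were at 9.80 and 8.63 in wild-type replicate 2 and at 9.72 and 8.31 in wild-type replicate 3. In knockout replicates 3 and 4 Rag1 was at 8.06 and 8.00 and Rag2 at 6.63 and 6.905. Not all B-lineage markers had this order. Cd22 was lowest in knockout replicates 1 and 2 (7.55 and 7.58), and Dntt was at 10.11 in knockout replicate 1 and 6.83 in replicate 2. Lyz2, the lysozyme gene of myeloid cells, was at 10.63, 10.64, 9.24 and 7.44 in knockout and at 8.33, 8.66, 9.93 and 8.35 in wild-type samples. The other 12 of 13 myeloid markers were lower on average in the RO knockout than in the RO wild-type samples. Over all genes the median RO difference was also negative, at -0.25. The part of the marker transcripts in the Il7r pattern was not tested.

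**Figure D2:**
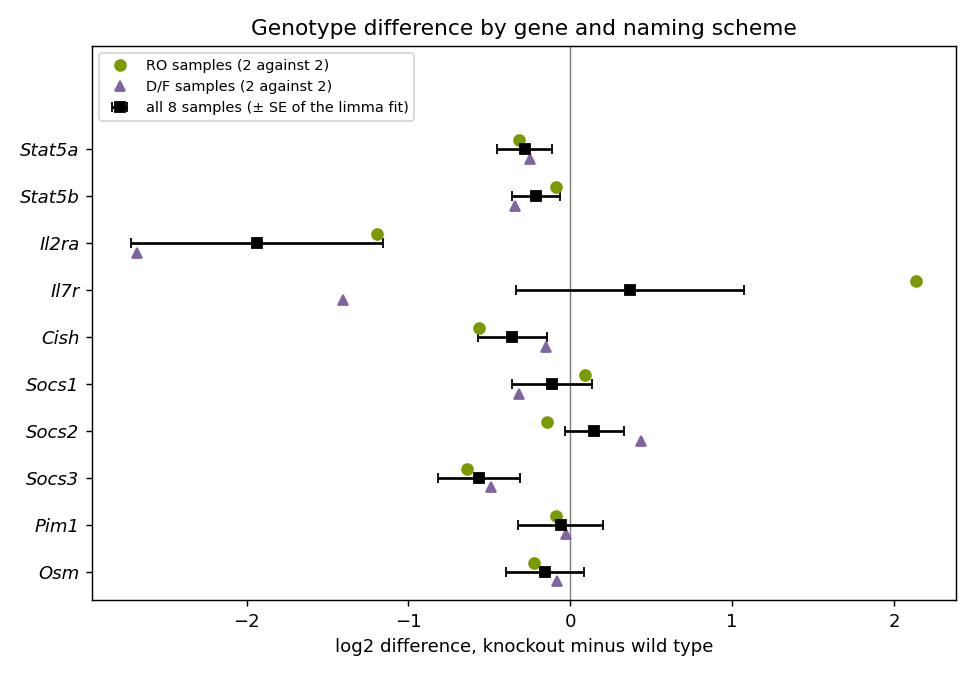
Log2 difference of each gene (x axis, knockout minus wild type): squares are the fit of all 8 samples with its SE, circles the RO samples and triangles the D/F samples alone. The RO and D/F points have opposite signs for Il7r (2.14 and -1.40), Socs1 and Socs2, and Il2ra is negative in both.

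Among the feedback inhibitors, Socs3, which binds JAKs and gp130-type receptors, had the largest difference. Its probe set (10393449) was at 8.20, 7.96, 8.50 and 8.67 in knockout and at 9.39, 8.04, 9.21 and 8.95 in wild-type samples. In 3 of the 4 wild-type samples Socs3 exceeded every knockout sample, and wild-type replicate 2 lay among the knockout samples. Knockout samples had a 1.48-fold lower mean, with a log2 difference of -0.56 (SE 0.25, limma adjusted p = 0.878), at -0.64 for RO and -0.49 for D/F titles. The difference was -0.28 when wild-type replicate 1 was left out and -0.82 when replicate 2 was, and the exact permutation p was 0.143 (2-sided). A second Socs3 probe set (10383010) had a difference of -0.12 over signals between 7.29 and 7.82.

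Cish, the classical STAT5 feedback gene with the paired motifs printed above, was at 9.16, 9.50, 10.03 and 10.46 in knockout and at 10.31, 9.48, 10.18 and 10.62 in wild-type samples. The genotypes overlapped (log2 difference -0.36, SE 0.21, limma adjusted p = 0.878), and the D/F samples were higher on average than the RO samples in both genotypes, without overlap in knockout samples only. The difference between schemes was 0.71 (SE 0.21, limma adjusted p = 0.886). Cish and Osm were the 2 genes of the 10 with an unadjusted p under 0.05 between schemes, against 3.12% of all genes; after adjustment 0 of the 10 and 0.0201% of all genes passed.

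Socs1, an inhibitor of JAK kinase activity, was at 10.18, 10.13, 9.43 and 10.33 in knockout and at 10.55, 9.59, 10.39 and 9.996 in wild-type samples. Each genotype had 1 low sample, the third of the knockout and the second of the wild-type replicates. The difference of -0.11 (SE 0.25) was smaller than the spread within either group, and centring the arrays on their medians turned it to 0.04. Socs2, which restrains growth hormone signalling and is a STAT5 target, was measured by 2 probe sets. The brighter (10394674) was at 12.48, 12.45, 12.57 and 13.04 in knockout and at 12.79, 12.44, 12.07 and 12.66 in wild-type samples, a difference of 0.15 (SE 0.18). The other (10372069) was at 9.50, 9.67, 9.77 and 10.13 in knockout and at 10.14, 9.62, 9.66 and 9.81 in wild-type samples, a difference of -0.04. Both probe sets list the same 4 RefSeq mRNAs, their groups overlapped, and they disagreed in sign. The positions of the probes were not used here, so it is not known whether the brighter probe set, used for Socs2 elsewhere, also detects another sequence.

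Pim1 was at 11.91, 12.45, 12.17 and 12.33 in knockout and at 12.87, 11.67, 12.73 and 11.83 in wild-type samples. Wild-type replicates 1 and 3 lay above and replicates 2 and 4 below all knockout samples. The log2 difference of the means was -0.06 (SE 0.26, limma adjusted p = 0.949). The SD was 0.61 in wild-type and 0.23 in knockout samples. With arrays centred on their medians the difference was 0.09, and without wild-type replicates 1 and 3 together it was 0.47 (SE 0.16), which did not pass the adjustment. Osm, the gene of oncostatin M, a cytokine of the interleukin 6 family and a STAT5 target, was at 9.22, 8.60, 9.24 and 9.83 in knockout and at 9.67, 8.61, 9.53 and 9.70 in wild-type samples. The lowest samples were knockout replicate 2 and wild-type replicate 2, both RO, and the genotype difference was -0.16 (SE 0.24, limma adjusted p = 0.882). The D/F samples exceeded the RO samples by 0.55 (SE 0.24), which did not pass the adjustment.

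Of the 10 genes, 8 were lower and 2 higher on average in knockout samples, with a median difference of -0.19, and 72% of all genes were lower. Relative to the median of all genes 7 were lower and 3 higher. Centring arrays on their medians moved the median of all genes from -0.113 to 0.0404. It shifts the difference of every gene alike and so cannot change these counts. After quantile normalization 8 were lower relative to the median of all genes. The genotypes failed to separate for each of the 10, while 1.29% of all genes separated. The median SD over 8 samples was 0.45 for the 10 genes and 0.26 for all genes. Wild-type replicates 1 and 3 were the highest 2 of the 8 samples for Il2ra, Socs1, Socs3 and Pim1. That order was common on these arrays (33.7% of all genes), and with arrays centred on their medians it held for Il2ra alone (6.12% of all genes). After quantile normalization it held for all 4 (12.1% of all genes).

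**Figure D3:**
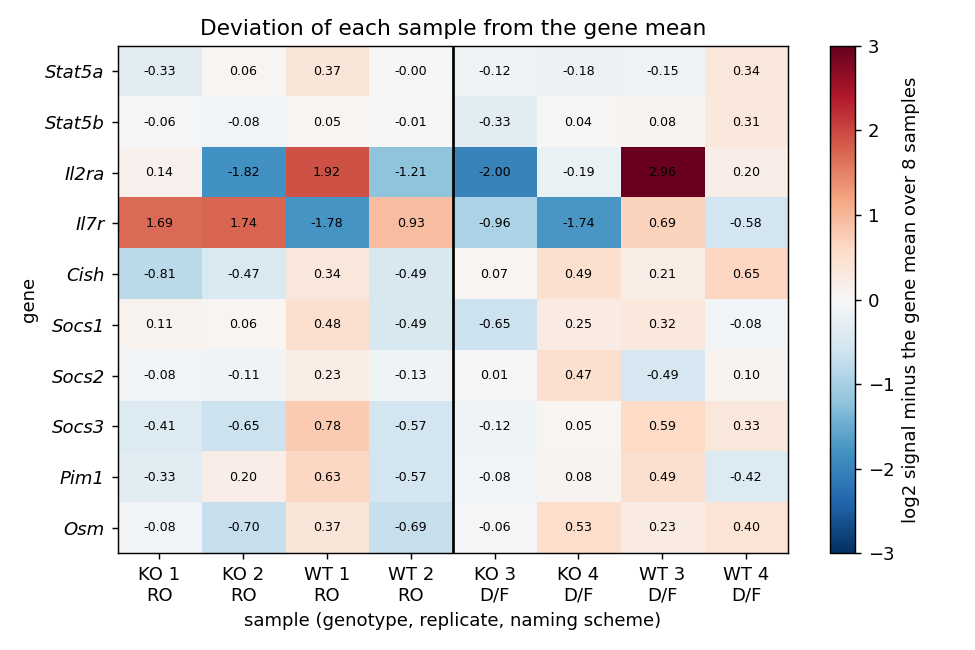
Log2 signal of each gene (rows) in each sample (columns, RO on the left of the line and D/F on the right) minus the mean of that gene over 8 samples. Il2ra is lowest in knockout replicate 3 (signal 6.10) and highest in wild-type replicate 3 (11.06). Il7r lies above its mean, and Cish, Socs3 and Osm below theirs, in knockout replicates 1 and 2 and wild-type replicate 2. In wild-type replicate 3 all of these genes lie above their means. In knockout replicate 3 Il7r, Socs3 and Osm lie below and Cish above.

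The samples were also compared by how the genes varied together. Of 45 pairs among the 10 genes, 8 had an unadjusted exact permutation p under 0.05 for Pearson's r over 8 samples, 5 positive and 3 negative, and 0 passed Benjamini-Hochberg adjustment over the pairs (smallest 0.219 for r and 0.199 for rho). The share among pairs of all genes was not computed, so the count of 8 cannot be read as particular to these genes. The positive pairs joined feedback genes, Osm and Il2ra. Socs3 and Osm had r = 0.824 (exact p = 0.0139; rho = 0.786, exact p = 0.0279), Il2ra and Socs3 r = 0.820 (exact p = 0.0126; rho = 0.786, exact p = 0.0279), and Cish and Osm r = 0.805 (exact p = 0.0193; rho = 0.881, exact p = 0.00724). Without the 2 samples farthest from the median of the first gene, r was 0.917, 0.898 and 0.960. With the means of genotype and scheme removed, r was 0.850, 0.755 and 0.657. With arrays centred on their medians it was 0.743, 0.753 and 0.762. In the RO samples r was 0.899, 0.934 and 0.608, and in the D/F samples 0.296, 0.956 and 0.864. The other positive pairs were Cish and Socs3 (r = 0.783, exact p = 0.02855) and Il2ra and Socs1 (r = 0.751, exact p = 0.0337). Centred, these had r = 0.706 and 0.513. In the RO samples they had 0.892 and 0.734, and in the D/F samples 0.220 and 0.815.

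All 3 negative pairs held Il7r. Il7r and Cish had r = -0.824 (exact p = 0.0198; rho = -0.714, exact p = 0.0576), Il7r and Osm r = -0.738 (exact p = 0.0434; rho = -0.810, exact p = 0.0218), and Il7r and Socs2 r = -0.721 (exact p = 0.0341; rho = -0.738, exact p = 0.0458). The 3 samples of highest Il7r in the RO scheme, at 11.64 or above, had the 3 lowest Cish signals, at 9.50 or below. Without the 2 samples of Il7r farthest from its median, r was -0.796 for Cish, -0.569 for Osm and -0.376 for Socs2, so the last rests largely on those samples. With genotype and scheme means removed it was -0.840, -0.630 and -0.866. That step leaves in place a genotype difference that varies between schemes, as that of Il7r did. With arrays centred on their medians r was -0.664, -0.562 and -0.218. For the less bright Socs2 probe set, computed after the pairs were seen, r with Il7r was -0.911 (exact p = 0.00146; rho = -0.833, exact p = 0.0154). In the RO samples r with Il7r was -0.953 for Cish, -0.7525 for Osm and -0.947 for the brighter Socs2 probe set. In the D/F samples it was -0.2875, -0.283 and -0.969. Each scheme has 4 samples, too few to judge a correlation of its own.

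**Figure D4:**
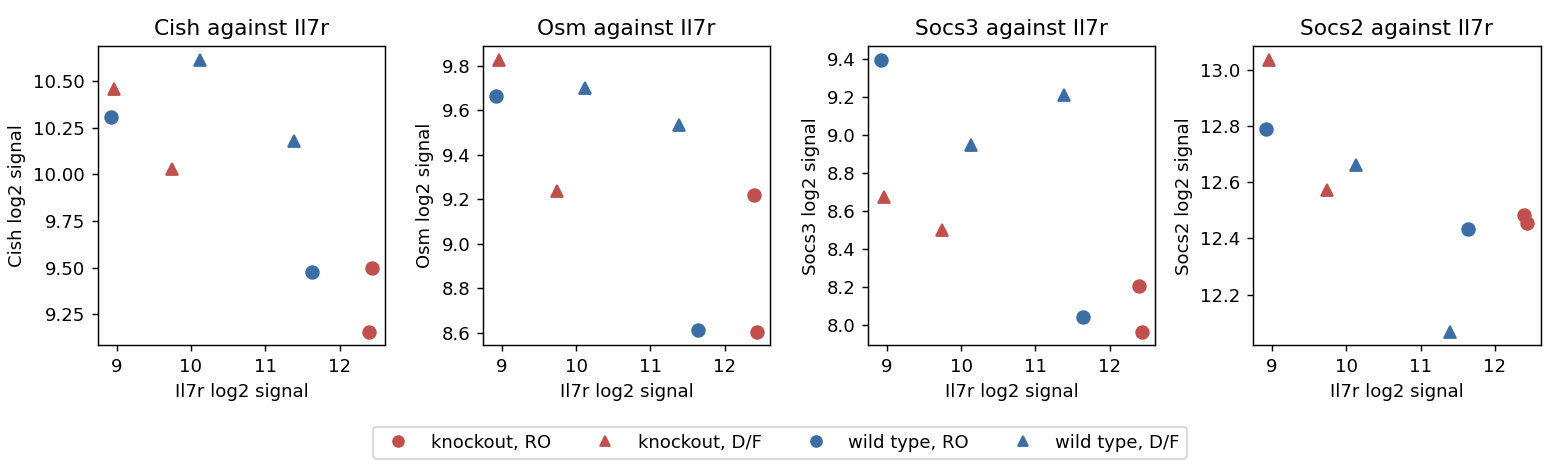
Log2 signals of Cish, Osm, Socs3 and Socs2 (y axes) against Il7r (x axis) in 8 samples; red is knockout, blue wild type, circles RO and triangles D/F. Knockout replicates 1 and 2 and wild-type replicate 2 have high Il7r and low Cish, while wild-type replicate 3 has high Il7r (11.39) with Cish at 10.18. Wild-type replicate 1 has the lowest Il7r (8.92) and the highest Socs3 (9.39). For Il7r and Socs3 r was -0.648 (exact permutation p = 0.0913) and rho -0.762 (exact permutation p = 0.0368). In the RO samples r was -0.959 and in the D/F samples 0.832.

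The genes most like the 3 members of largest SD were taken from 9482 genes of higher signal by Pearson's r over the 8 samples, a measure of likeness given without a p because the highest values were picked. For Il2ra they were Npc1, a cholesterol transporter of late endosomes (r = 0.984), the acyl-CoA dehydrogenase gene Acad8 (0.977) and the protease gene Sppl2b (0.966). For Il7r they were Cat, which encodes catalase (0.962), Ssbp2 (0.961) and the scavenger receptor gene Colec12 (0.957), which ran from 7.89 in wild-type replicate 1 to 12.28 in knockout replicate 1. For Socs3 they were the glycosylation gene Alg1 (0.977), Rtn4rl1 (0.975) and Usb1 (0.964).

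Other genes of the pathway were measured for 72 of 79 listed, and limma called 0 of them after adjustment. At an unadjusted p under 0.05, 3 were lower and 1 higher in knockout samples, where 1.72% and 0.537% of all genes were. Among 18 further receptor genes 14 were lower on average, with a median difference of -0.15. Csf2ra, the alpha chain of the GM-CSF receptor, was at 7.99 ± 0.18 in knockout and 8.40 ± 0.20 in wild-type samples (SD, n = 4 each). All knockout samples were lower, as for 1.03% of all genes (log2 difference -0.41, SE 0.17, limma adjusted p = 0.878). Lifr, a receptor of leukaemia inhibitory factor, had -0.81 (SE 0.34), led by 8.53 in wild-type replicate 1, and Il5ra had -0.37 (SE 0.28). Of 13 further cytokine genes, 12 were below the array median in all 8 samples, and Il2, Il4 and Il9 had differences of -0.30, -0.29 and -0.24.

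Of 7 JAK and STAT genes, all above the array median in every sample, 4 were lower and 3 higher on average. Stat4 had 0.38 (SE 0.32), Stat3 -0.14 (SE 0.14) and Stat6 -0.16 (SE 0.16). Of 15 further inhibitors, 8 were lower and 7 higher, and Cblb, a ubiquitin ligase, had -0.27 (SE 0.21), Pias3 -0.17 (SE 0.14) and Pias4 -0.15 (SE 0.17). For Pias3 all knockout samples were below all wild-type samples, as for 1.03% of all genes. Of 19 further genes described as STAT5 targets or survival genes, 11 were lower and 8 higher. Rgs1, a regulator of G-protein signalling, was at 6.95, 5.75, 6.73 and 6.97 in knockout and at 7.87, 7.44, 7.502 and 7.92 in wild-type samples. All knockout samples were below all wild-type samples, the order of 1.03% of all genes (log2 difference -1.08, SE 0.26, limma adjusted p = 0.878). Each knockout signal of Rgs1 lay below the median of its array. Mcl1, a survival gene, had all knockout samples above all wild-type samples (0.24, SE 0.14), the order of 0.266% of all genes. Hif1a, the hypoxia-inducible factor gene, had 0.50 (SE 0.21) with a low 9.74 in wild-type replicate 1, and Bcl2, the survival gene, had -0.59 (SE 0.28).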

How the data were processed

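The authors deposited log2 signals for 34760 probe sets, 1 column per sample; the submitters' processing notes name MAS5, which needs mismatch probes that MoGene arrays do not carry, and the steps behind the values are therefore uncertain. The scale was read from the values: the linear mean with 2% trimmed at each end was 500 on every array, which leaves array medians unequal. The platform annotation gave 21640 probe sets 1 symbol, 1321 several and 11799 none; the other kinds were left out. For each of 19937 genes the probe set of highest mean entered a limma fit (version 3.58.1, R 4.3.3; lmFit, then eBayes with trend). Its terms were the genotype and the naming scheme, leaving 5 residual degrees of freedom. The Benjamini-Hochberg adjustment ran over all genes at a threshold of 0.05. Groups came from the genotype label, and replicates were numbered in accession order. Exact permutation tests of single genes were added after the data were seen. On simulated data of this comparison (19937 genes), 91% of log2 changes of 2 and 57% of changes of 1 were recovered, with 5 false calls. The changed genes were drawn at random, each with independent noise of its own residual spread. Il2ra and Il7r vary more than nearly all genes, so these shares do not apply to them.

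Named genes were the 10 genes, Jun and Cdk6, up to 3 genes of smallest p per pathway list, and the 3 genes most correlated with each of the 3 members of largest SD (no predicted, receptor-cluster, small RNA or accession-type symbols). Marker genes outside this rule, and Mcl1, were named after their values were seen. The members and lists were chosen with earlier results of these data known. Some listed pathway and marker genes were not analysed here. The NK, myeloid, erythroid and megakaryocyte, and stromal marker lists had mean levels of 5.89 to 7.60, 6.44 to 7.09, 6.52 to 7.15 and 6.87 to 7.61 over the 8 samples.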

Additional observations from a re-analysis of the deposited data

Results flagged for a closer look

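Osm in wild-type replicate 2, at 8.61, lay apart from the other wild-type samples (9.53 to 9.70); the gap was 0.847 of the range of the group, and chance sets apart about 1 in 20 groups of this size by this measure. The measure was applied to both genotypes of all 10 genes and flagged 1 group, about as many as chance would give. Wild-type replicate 2 also had the lowest wild-type signals of Stat5b, Il2ra, Cish, Socs1, Socs3 and Pim1.

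The genotype difference of Il7r had opposite directions in the 2 naming schemes, with every knockout sample above the wild-type samples in RO and below them in D/F. The D/F difference minus the RO difference was -3.54 (limma adjusted p = 0.716). It was -3.53 after quantile normalization and -3.885 with arrays centred on their medians.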

How the results depend on the processing

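No paired analysis was possible because the labels carry no replicate numbers. The 1 gene called over all genes became 0 with brighter genes only, 32 in the RO samples, 79 in the D/F samples, 4 without wild type replicates 1 and 3 together, and 0 to 2 with 1 replicate left out. The count of members with an unadjusted limma p under 0.05, which was 2 (Il2ra and Socs3), was 0 after quantile normalization, with arrays centred on their medians and with brighter genes only. It was 1 without a naming-scheme term and with the mean or the lower of the probe sets of a gene (Il2ra), with robust priors (Socs3), in the RO samples (Il7r) and without wild type replicates 1 and 3 together (Pim1). It was 3 in the D/F samples (Il2ra, Il7r and Socs2) and 0 to 2 with 1 replicate left out. Over all genes 449 passed that limit in the main fit, 677 after quantile normalization and 644 with arrays centred on their medians. The number over all genes is not given for the other settings, so the member counts there have no share beside them. The median member difference of -0.19 ran from -0.35 to -0.08 with 1 replicate left out.

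Members that changed sign did so as follows. With arrays centred on their medians Socs1 had 0.038 and Pim1 0.093. In the RO samples Socs1 had 0.088 and Socs2 -0.14, and in the D/F samples Il7r had -1.40. The lower probe set of Socs2 gave -0.039. Without wild type replicates 1 and 3 together Socs1 had 0.22, Pim1 0.47 and Osm 0.067. With 1 replicate left out, Il7r ran from -0.53 to 0.97, Socs1 from -0.35 to 0.11, Socs2 from -0.029 to 0.28, Pim1 from -0.29 to 0.19 and Osm from -0.35 to 0.070, while Il2ra (-2.71 to -1.24), Socs3 (-0.82 to -0.28), Cish (-0.49 to -0.15), Stat5a (-0.39 to -0.19) and Stat5b (-0.26 to -0.12) kept their sign. The interaction turned to -0.27 for Stat5a, -0.20 for Socs3, -0.28 for Pim1 and -0.20 for Osm with arrays centred on their medians. The cause was not tested. The lower-probe-set fit, the fit without wild type replicates 1 and 3 together and the rescaled interactions were chosen after seeing the data, and pseudocounts do not apply to log2 values.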
